A study of Mus musculus with 9 samples.

Results

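The 4 transmitter transporter genes Slc17a6, Slc17a7, Slc32a1 and Slc6a11 were followed across 9 libraries of mouse hippocampal polyadenylated RNA. They were taken by name from the 14779 genes of the deposited table, through their Ensembl identifiers in GENCODE M21, and all 4 were found and passed the filter on low counts. Ethanol-exposed mice given an antibody against interleukin 17A form the group CIE+IL17 Ab, ethanol-exposed mice given the control antibody form CIE+IgG, and mice kept in air and given the control antibody form Air+IgG. CIE stands for chronic intermittent ethanol, and each group holds 3 libraries, with 3 mice a group per the series' design text. All mice received an antibody, and no strain, sex or age is given in the labels used here.

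Neurons load transmitter into synaptic vesicles through dedicated transporters, and these genes tell apart which transmitter a neuron releases and, for glutamate, largely where it lies. Slc17a7 encodes VGLUT1, the vesicular glutamate transporter of cortical and hippocampal pyramidal and granule neurons, and Slc17a6 encodes VGLUT2, that of most thalamic, habenular and brainstem glutamate neurons. Slc32a1 encodes VGAT, which loads GABA and glycine into vesicles of inhibitory neurons. Slc6a11 encodes the GABA transporter GAT-3, which is not vesicular but lies in the plasma membrane, mainly of astrocytes, and takes GABA back up from the extracellular space.

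The 4 genes are protein-coding and lie on the plus strand of GRCm38, the build that the submitters' processing notes name. Slc17a6 (ENSMUSG00000030500) spans chr7:51622006-51671119, Slc17a7 (ENSMUSG00000070570) chr7:45163949-45176142, Slc32a1 (ENSMUSG00000037771) chr2:158610767-158615748 and Slc6a11 (ENSMUSG00000030307) chr6:114131241-114249952. The RefSeq promoter windows of GRCm38.p6, from 250 bases before to 50 after a transcription start, are shown for the glutamate transporter pair, whose levels ran in opposite directions, and for Slc6a11, whose level ran with Slc17a6. Slc17a6 has 2 such windows, and the one farther upstream is printed. Capitals mark the GC box, GGGCGG on either strand.
Slc17a6 promoter (chr7:51621580-51621879, + strand): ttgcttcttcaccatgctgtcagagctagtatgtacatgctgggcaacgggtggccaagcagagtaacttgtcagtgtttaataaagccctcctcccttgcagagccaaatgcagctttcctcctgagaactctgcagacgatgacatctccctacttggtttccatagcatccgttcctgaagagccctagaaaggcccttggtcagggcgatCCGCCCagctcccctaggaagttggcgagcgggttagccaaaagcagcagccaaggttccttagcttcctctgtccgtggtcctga
Slc17a7 promoter (chr7:45163671-45163970, + strand): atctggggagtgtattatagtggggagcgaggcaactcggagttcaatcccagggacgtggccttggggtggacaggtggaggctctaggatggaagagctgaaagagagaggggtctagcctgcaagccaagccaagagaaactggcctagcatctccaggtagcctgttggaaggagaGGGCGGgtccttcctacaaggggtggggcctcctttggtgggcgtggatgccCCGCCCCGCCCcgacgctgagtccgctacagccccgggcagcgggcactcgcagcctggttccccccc
Slc6a11 promoter (chr6:114130991-114131290, + strand): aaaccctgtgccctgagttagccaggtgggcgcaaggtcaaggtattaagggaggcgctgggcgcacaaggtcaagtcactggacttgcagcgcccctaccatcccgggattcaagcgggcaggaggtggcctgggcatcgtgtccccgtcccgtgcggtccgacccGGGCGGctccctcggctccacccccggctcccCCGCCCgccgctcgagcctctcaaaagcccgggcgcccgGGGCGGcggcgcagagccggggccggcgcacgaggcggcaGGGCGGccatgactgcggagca
The GC box was found 1 time in the Slc17a6 window, 3 times in that of Slc17a7 (with 2 of the matches overlapping) and 4 times in that of Slc6a11, and 35.7% of 32851 mouse promoter windows of the same length hold it. TATAAA (the TATA box, in 13.6% of windows), TGACG (the core of the cAMP response element, in 20.8%), CTTTGA (the TCF/LEF core, in 16%) and TAATTA (a homeodomain core, in 5.29%) were searched on both strands and were not found in these 3 windows, while the second Slc17a6 window held TGACG and TAATTA 1 time each and the Slc32a1 window held none of the 5.

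Library totals ranged from 7372658 to 11894628 estimated counts, and 14696 genes were tested. The labels also carry a sample number whose meaning they do not give. Numbers 37 to 39 fall on 1 library of each group, the 3 with the largest totals, and were treated as a possible batch. A single gene, Lars2, took 6.71% of all counts in CIE+IL17 Ab replicate 1 and 7.13% in Air+IgG replicate 2, against at most 0.021% in the other libraries. The summed level of 8 choroid plexus markers was 64.8 CPM in CIE+IL17 Ab replicate 1, the library with the highest Slc17a6 and Slc6a11, against 7117 and 5754 CPM in replicates 2 and 3 of that group, 2998 to 5623 CPM in CIE+IgG and 509 to 3732 CPM in Air+IgG. Hippocampal markers were present in all 9 libraries, but some libraries also held markers of other regions. The summed level of 14 thalamus and habenula markers was 1177 to 2317 CPM (counts scaled to a library total of 1000000) in the CIE+IL17 Ab libraries and 306 to 512 CPM in CIE+IgG, against 262 to 350 CPM in Air+IgG. The summed level of 10 striatal markers was 960 CPM in CIE+IL17 Ab replicate 3 and 1525 CPM in CIE+IgG replicate 3, against 276 to 435 CPM in the other libraries. The part of these markers in the results below was not tested. In bulk tissue, fewer cells of a type and less RNA per cell cannot be told apart.

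Slc17a6 was higher in the CIE+IL17 Ab libraries than in both other groups. After scaling by the trimmed mean of M-values (TMM), it had 483, 390 and 166 CPM in the 3 CIE+IL17 Ab libraries, 28.0, 47.6 and 50.8 CPM in CIE+IgG, and 37.6, 19.0 and 41.7 CPM in Air+IgG. Every CIE+IL17 Ab library lay above every library of the other groups, and its lowest, replicate 3, was more than 3 times the highest of the other 6. The group means were 346 ± 163 CPM in CIE+IL17 Ab and 42.2 ± 12.3 CPM in CIE+IgG, against 32.7 ± 12.1 CPM in Air+IgG (SD, n = 3 each). Against CIE+IgG the log2 fold change was 3.04 with a standard error of 0.45 (edgeR quasi-likelihood test, adjusted p = 0.0242), and against Air+IgG it was 3.39 with a standard error of 0.46 (adjusted p = 0.0105). Of the 14696 genes, 3.18% passed an adjusted p of 0.05 between CIE+IL17 Ab and CIE+IgG, with 1.78% higher and 1.41% lower, and 13.5% passed between CIE+IL17 Ab and Air+IgG, with 6.83% higher and 6.71% lower.

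Against CIE+IgG the log2 fold change stayed between 2.72 and 3.37 when any library was left out, but the adjusted p was 0.124 and 0.0982 without CIE+IgG replicates 1 and 2, 0.0968 without CIE+IL17 Ab replicate 2, 0.0537 and 0.057 without Air+IgG replicates 1 and 3, and 0.0896 with only both ethanol-exposed groups in the fit. Against Air+IgG the call was lost without Air+IgG replicate 3 (adjusted p = 0.0537). In the 6 libraries numbered 54 to 60, 2 per group, the log2 fold changes were 3.10 against CIE+IgG and 3.51 against Air+IgG (adjusted p = 0.182 and 0.119), and in the 3 libraries numbered 37 to 39 Slc17a6 had 390 CPM in CIE+IL17 Ab and 50.8 CPM in CIE+IgG, against 41.7 CPM in Air+IgG.

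Slc17a7, the hippocampal glutamate transporter, had 24.0, 104 and 338 CPM in CIE+IL17 Ab, 810, 821 and 396 CPM in CIE+IgG, and 803, 861 and 666 CPM in Air+IgG. All 3 CIE+IL17 Ab libraries lay below the other 6, and the library with the highest Slc17a6 had the lowest Slc17a7. CIE+IgG replicate 3, with high striatal markers, had the lowest Slc17a7 outside the antibody group. The means were 156 ± 163 CPM in CIE+IL17 Ab and 676 ± 242 CPM in CIE+IgG, against 776 ± 100 CPM in Air+IgG (SD, n = 3 each). The log2 fold change was -2.12 against CIE+IgG with a standard error of 0.76 (adjusted p = 0.150) and -2.32 against Air+IgG with a standard error of 0.76 (adjusted p = 0.078), so neither difference passed. The highest of the 3 CIE+IL17 Ab values was 14.1 times the lowest, and without replicate 3 the log2 fold changes were -3.39 (adjusted p = 0.0213) and -3.59 (adjusted p = 0.0124), both past the threshold. Against Air+IgG it also passed in DESeq2 (adjusted p = 0.0297) and limma-voom (adjusted p = 0.0451).

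**Figure D1:**
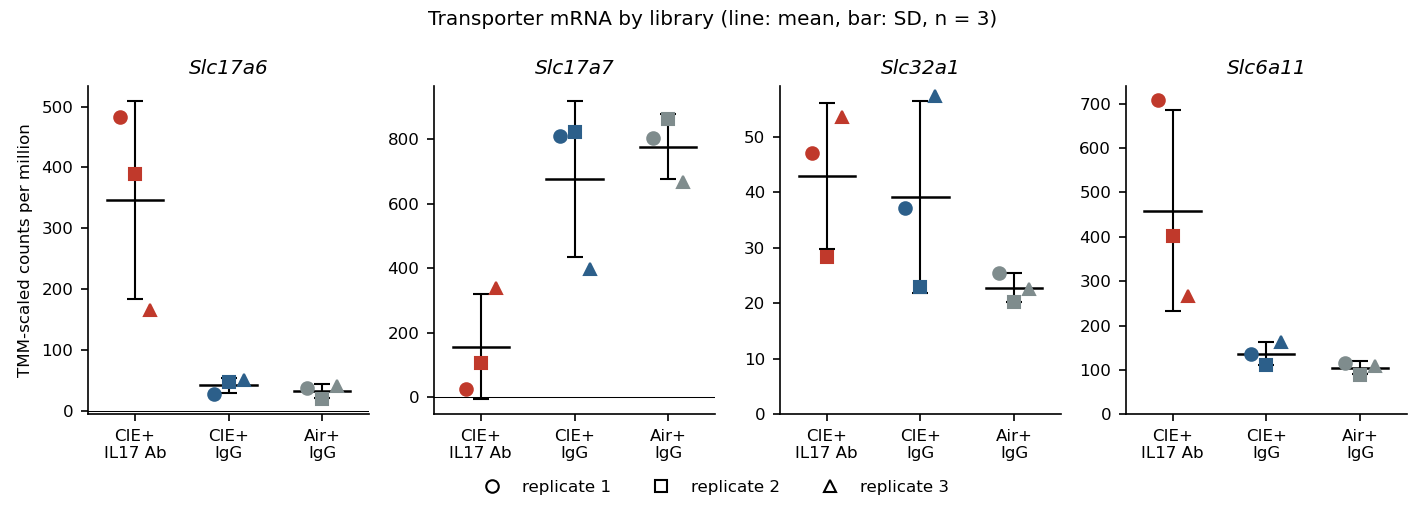
TMM-scaled CPM of the 4 transporter genes in each library, by group, with replicates as marker shapes, the mean as a line and the SD as a bar (n = 3). Slc17a6 and Slc6a11 lie above all 6 IgG libraries in each CIE+IL17 Ab library, Slc17a7 lies below them in each, and the Slc32a1 values of CIE+IL17 Ab and CIE+IgG overlap.

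The Slc17a6 to Slc17a7 ratio compares both glutamate transporters within a library, so it does not depend on scaling between libraries, and their summed exon lengths, 5399 and 5392 bases, are nearly equal. The ratio of counts was 20.1, 3.74 and 0.491 in CIE+IL17 Ab, 0.0346, 0.0580 and 0.128 in CIE+IgG, and 0.0468, 0.0220 and 0.0626 in Air+IgG. Slc17a6 was the more abundant of the pair in CIE+IL17 Ab replicates 1 and 2 and the less abundant in the other 7 libraries. On the log2 scale the ratio averaged 1.73 ± 2.68 in CIE+IL17 Ab, -3.97 ± 0.95 in CIE+IgG and -4.64 ± 0.78 in Air+IgG (SD, n = 3 each). The 3 groups differed in an exact permutation test of the F statistic (p = 0.0179, and 0.0268 adjusted over 3 ratios, 1 of which is not reported). Between 2 groups the smallest two-sided exact permutation p with 3 against 3 is 0.1, which the CIE+IL17 Ab values reached against both others (p = 0.1 each, 0.15 adjusted over 9 tests), and CIE+IgG and Air+IgG overlapped (exact permutation p = 0.5). The 3-group call was lost without any 1 of the 6 IgG libraries: its adjusted p was 0.0696, 0.0679 and 0.0679 without CIE+IgG replicates 1, 2 and 3, and 0.0804, 0.102 and 0.075 without Air+IgG replicates 1, 2 and 3.

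The sum of both transporters varied far less among the antibody libraries than either gene did. Slc17a6 plus Slc17a7 came to 507, 494 and 504 CPM in CIE+IL17 Ab, 838, 869 and 447 CPM in CIE+IgG, and 840, 880 and 708 CPM in Air+IgG. The 3 antibody libraries lay close together, below all Air+IgG libraries and below 2 of the 3 CIE+IgG libraries. This sum was computed after the values were seen and was not tested. Slc17a8, the gene of the third vesicular glutamate transporter VGLUT3, added little, with 3.74 ± 3.30 CPM in CIE+IL17 Ab and 6.42 ± 2.16 CPM in CIE+IgG, against 5.54 ± 1.58 CPM in Air+IgG (SD, n = 3 each), and did not pass in any comparison.

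Slc6a11 was also higher in the CIE+IL17 Ab libraries. It had 709, 402 and 267 CPM in CIE+IL17 Ab, 135, 111 and 163 CPM in CIE+IgG, and 116, 88.1 and 110 CPM in Air+IgG. All CIE+IL17 Ab libraries were above the other 6, in the same order among themselves as for Slc17a6. The log2 fold change was 1.75 against CIE+IgG with a standard error of 0.33 (adjusted p = 0.0375) and 2.13 against Air+IgG with a standard error of 0.33 (adjusted p = 0.0127). Against CIE+IgG the call was lost without CIE+IgG replicates 1 and 2 (adjusted p = 0.173 and 0.143), CIE+IL17 Ab replicate 2 (0.12) and Air+IgG replicates 1, 2 and 3 (0.0797, 0.0523 and 0.0764), and with only both ethanol-exposed groups in the fit (0.121), while the log2 fold change stayed between 1.29 and 2.02. Against Air+IgG it was lost without Air+IgG replicates 2 and 3 (0.0507 and 0.0537), and in the libraries numbered 54 to 60 the log2 fold changes were 1.98 and 2.25 (adjusted p = 0.2 and 0.132).

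**Figure D2:**
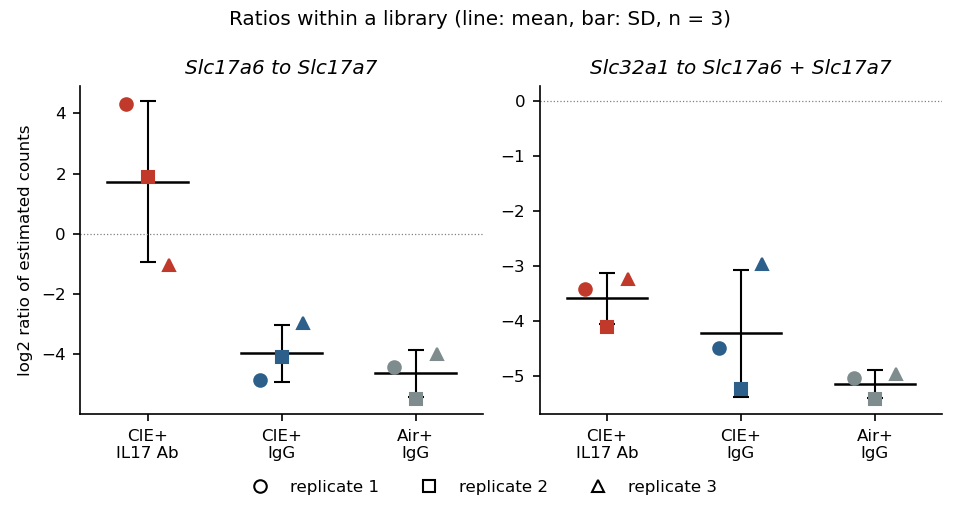
Log2 ratio of estimated counts within each library for Slc17a6 to Slc17a7 and for Slc32a1 to the sum of Slc17a6 and Slc17a7, by group, with the mean as a line and the SD as a bar (n = 3). The dotted line marks equal counts, which the Slc17a6 to Slc17a7 ratio passes in CIE+IL17 Ab replicates 1 and 2, while the Slc32a1 ratio stays below it in all 9 libraries.

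Slc32a1, the vesicular GABA transporter, did not pass in any comparison. It had 47.1, 28.3 and 53.6 CPM in CIE+IL17 Ab, 37.2, 22.9 and 57.3 CPM in CIE+IgG, and 25.6, 20.3 and 22.6 CPM in Air+IgG. The lowest CIE+IL17 Ab library was above all Air+IgG libraries, while both ethanol-exposed groups overlapped. The log2 fold change was 0.13 with a standard error of 0.33 against CIE+IgG (adjusted p = 0.868), where its sign turned without CIE+IgG replicate 2 (-0.14) or CIE+IL17 Ab replicate 3 (-0.07). Against Air+IgG it was 0.91 with a standard error of 0.34 (adjusted p = 0.107, and 0.0382 in DESeq2). The 2 highest values were those of replicate 3 of CIE+IL17 Ab and replicate 3 of CIE+IgG, the 2 libraries with the highest striatal markers. Striatal projection neurons release GABA, and the part of these markers in the Slc32a1 values was not tested. For 14 inhibitory interneuron markers the sum was 696 to 1036 CPM in CIE+IL17 Ab and 1062 to 1128 CPM in CIE+IgG. It was 1006 to 1205 CPM in Air+IgG, and its part in the Slc32a1 values was not tested either.

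Set against the glutamate transporters of the same library, the ratio of Slc32a1 to Slc17a6 plus Slc17a7 was 0.0929, 0.0573 and 0.106 in CIE+IL17 Ab, 0.0443, 0.0264 and 0.128 in CIE+IgG, and 0.0304, 0.0231 and 0.0320 in Air+IgG. The CIE+IL17 Ab libraries were above the Air+IgG libraries, and CIE+IgG replicate 3 was above all others. The 3 groups did not differ past the threshold (exact permutation p = 0.132, also 0.132 adjusted over 3 ratios), and without CIE+IgG replicate 3 they did (exact permutation p = 0.0286, 0.0429 adjusted). The GABA-synthesising enzyme Gad2, which the named-gene rule took for ethanol against air, had 363, 212 and 295 CPM in CIE+IL17 Ab, 202, 145 and 420 CPM in CIE+IgG, and 143, 146 and 186 CPM in Air+IgG, with CIE+IgG replicate 3 again highest. The other such enzyme, Gad1, picked after its values were seen, had 183 to 419 CPM in CIE+IL17 Ab and 303 to 426 CPM in CIE+IgG, against 279 to 333 CPM in Air+IgG.

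Ethanol exposure alone, CIE+IgG against Air+IgG, left all 4 transporter genes below the threshold. The log2 fold changes were 0.36 for Slc17a6 (standard error 0.44), -0.20 for Slc17a7 (0.72), 0.78 for Slc32a1 (0.34) and 0.38 for Slc6a11 (0.32). The groups overlapped for Slc17a6, Slc17a7, Slc32a1 and Slc6a11. Over all genes 0 passed, or 0% of 14696, in edgeR and in limma-voom, 6 passed in DESeq2, and 406 genes, or 2.76%, had an unadjusted edgeR p under 0.05. Slc32a1 was among the latter, with an unadjusted p of 0.0479, and its log2 fold change was 0.40 without CIE+IgG replicate 3. The sign of Slc17a7 turned without that library, to 0.07.

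Levels of different genes can be compared per length of exon, as CPM per kilobase. In CIE+IL17 Ab the order by mean level was Slc6a11 with 90.9 ± 44.9, Slc17a6 with 64.1 ± 30.2, Slc17a7 with 28.8 ± 30.3 and Slc32a1 with 15.4 ± 4.69 CPM per kilobase (SD, n = 3 each), and every pair of neighbours overlapped between libraries. Within CIE+IL17 Ab replicates 1 and 2 Slc6a11 was highest and Slc17a6 second, while replicate 3 had Slc17a7 highest, as had all 6 IgG libraries. In CIE+IgG the levels were 125 ± 45.0 for Slc17a7, 27.0 ± 5.16 for Slc6a11, 14.0 ± 6.18 for Slc32a1 and 7.81 ± 2.28 CPM per kilobase for Slc17a6, and Slc32a1 and Slc17a6 were the one pair of neighbours that overlapped. In Air+IgG the same order held, with 144 ± 18.6, 20.7 ± 2.89, 8.16 ± 0.943 and 6.06 ± 2.24 CPM per kilobase, and the same pair overlapped.

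Between CIE+IL17 Ab and CIE+IgG, 3 of the 4 transporters had no overlap between the groups, where 25.9% of all genes had none (12.7% higher, 13.2% lower), and 2 passed, where 3.18% did. Against Air+IgG all 4 had no overlap, where 35.3% of all genes had none (17.3% higher, 18.1% lower), and 2 passed, where 13.5% did. Between CIE+IgG and Air+IgG 0 of the 4 were without overlap, where 9.44% of all genes were (4.64% higher, 4.8% lower). The counts moved with the library left out. Against CIE+IgG 0 genes passed in edgeR without CIE+IgG replicate 1, with 2114 at an unadjusted p under 0.05. There 7 passed without CIE+IgG replicate 2, 19 without CIE+IL17 Ab replicate 2 and 18 without Air+IgG replicate 3. Without CIE+IL17 Ab replicate 3 it was 1313. Against Air+IgG 0 genes passed in edgeR without Air+IgG replicate 3, with 3911 at an unadjusted p under 0.05. The comparisons share libraries, so their values are not independent.

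Markers of other regions and cell types moved beside the transporters. Of 14 tested thalamus and habenula markers, 11 rose and 0 fell between CIE+IL17 Ab and CIE+IgG, and 13 were without overlap. Of all genes, 1.78% rose, 1.41% fell and 25.9% were without overlap there. The marker lists were chosen with earlier results of these data known. Chrna3, Pou4f1 and Gpr151 of this list had the 3 smallest p of all genes in this comparison. The counts beside these shares are therefore a description and no test. The median log2 fold change of these markers was 2.48, where that of all genes was 0.01. Tcf7l2, a transcription factor of thalamic and habenular neurons, had 176, 231 and 126 CPM in CIE+IL17 Ab, 5.58, 6.55 and 27.0 CPM in CIE+IgG, and 6.39, 6.86 and 5.30 CPM in Air+IgG. Chrna3, a nicotinic receptor subunit of the habenula, rose by 4.32 on the log2 scale (adjusted p = 0.00509), and Pou4f1, a habenular transcription factor, was at 0 counts in CIE+IgG replicates 1 and 2 and Air+IgG replicates 1 and 2. Among the 3 antibody libraries the summed level of these markers and Tcf7l2 were highest in replicate 2, and Slc17a6 was highest in replicate 1. Tcf7l2 and Slc17a6 were both lowest in replicate 3, while the sum was lowest in replicate 1. Of 8 CA1 pyramidal markers 4 fell and all 8 were below 0, with a median of -1.85, and their summed level was 146, 166 and 291 CPM in CIE+IL17 Ab replicates 1, 2 and 3, the same order as Slc17a7. These sums were 463 to 669 CPM in CIE+IgG, against 638 to 730 CPM in Air+IgG. Of 11 astrocyte markers 3 rose, and their sum was 1493 to 2373 CPM in CIE+IL17 Ab and 1380 to 1426 CPM in CIE+IgG, against 1333 to 1458 CPM in Air+IgG. Among them Agt, angiotensinogen, rose by 2.82 on the log2 scale (adjusted p = 0.0242) and Gja1, connexin 43, by 0.46 (adjusted p = 0.046). Their calls were lost in 5 and 8 of 9 fits that leave out 1 library. Of 8 oligodendrocyte markers 0 passed against CIE+IgG, and 6 rose against Air+IgG, where all 8 were without overlap and the median was 0.71. Of all genes, 6.83% rose against Air+IgG, and 17.3% were higher without overlap. The oligodendrocyte sum was 6132 to 7480 CPM in CIE+IL17 Ab and 4592 to 7277 CPM in CIE+IgG, against 4022 to 4578 CPM in Air+IgG. The part of these cells in the transporter values was not tested, and in these libraries the antibody and the thalamus and habenula markers cannot be told apart.

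**Figure D3:**
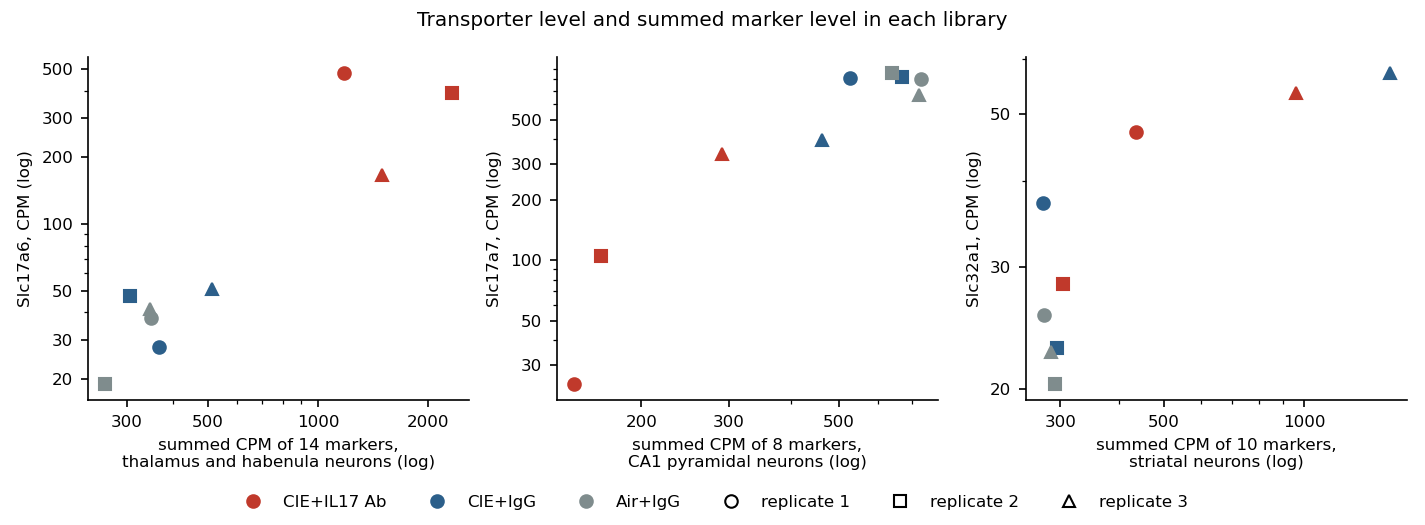
Each transporter's CPM (vertical, log scale) against the summed CPM of a marker list (horizontal, log scale) in each library: Slc17a6 with 14 thalamus and habenula markers, Slc17a7 with 8 CA1 pyramidal markers and Slc32a1 with 10 striatal markers. Colours are groups and shapes are replicates, and the 3 CIE+IL17 Ab libraries lie apart from the other 6 in the first and second panels, while replicate 3 of CIE+IL17 Ab and of CIE+IgG lie to the right in the last one.

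Other transporters and enzymes of the same transmitters were read from lists. Of the 3 other vesicular transporters tested (Slc17a8, Slc18a1 and Slc18a2) 0 passed in any comparison. Of 3 other plasma membrane GABA and glycine transporters, 1 passed and was higher in CIE+IL17 Ab, Slc6a9, the glycine transporter GlyT1. Of all genes, 3.18% passed against CIE+IgG and 13.5% against Air+IgG. Slc6a9 had 113, 78.0 and 60.4 CPM in CIE+IL17 Ab, 36.6, 40.4 and 42.5 CPM in CIE+IgG, and 34.9, 31.5 and 35.7 CPM in Air+IgG. Its log2 fold change was 1.07 against CIE+IgG (adjusted p = 0.0367) and 1.29 against Air+IgG (adjusted p = 0.012). Of 9 fits that leave out 1 library, 6 lost the call against CIE+IgG and 1 lost that against Air+IgG. Slc6a13 (GAT-2) and Slc6a12 (the betaine and GABA transporter BGT1) had log2 fold changes of -1.71 and -1.54 in CIE+IgG against Air+IgG, with unadjusted p of 0.00229 and 0.0255, and neither passed. Of 10 meningeal fibroblast markers 0 passed and 9 were below 0 in that comparison, with a median log2 fold change of -1.10, and their part in these values was not tested.

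Of 4 glutamate uptake transporters tested, 2 fell in CIE+IL17 Ab against Air+IgG, where 6.71% of all genes fell. They were Slc1a2 (GLT-1, the main astrocyte uptake transporter), with a log2 fold change of -0.65 (adjusted p = 0.0185), and Slc1a1 (the neuronal transporter EAAC1), with -0.64 (adjusted p = 0.017). Each of these calls was lost in 4 of 9 fits that leave out 1 library. Against CIE+IgG 0 of the 4 passed, where 3.18% of all genes did. The log2 fold changes there were -0.50 for Slc1a2 and -0.53 for Slc1a1 (adjusted p = 0.0704 and 0.0533). Slc1a2 averaged 3670 ± 531 CPM in CIE+IL17 Ab and 5177 ± 499 CPM in CIE+IgG, against 5768 ± 142 CPM in Air+IgG (SD, n = 3 each). All 3 CIE+IL17 Ab libraries were below the other 6 for Slc1a2 and above them for Slc6a11, both of which are transporters of astrocytes.

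Of 13 genes of glutamate and GABA metabolism and glutamine transport, 1 rose against CIE+IgG, where 1.78% of all genes rose. It was Slc38a1, a neuronal glutamine transporter, with 0.69 on the log2 scale (adjusted p = 0.0373). That call was lost in 7 of 9 fits that leave out 1 library. Against Air+IgG 2 rose, Slc38a1 by 0.84 and Abat, the GABA transaminase that breaks GABA down, by 0.93 (adjusted p = 0.012 and 0.0428). That is 2 of 13 where 13.5% of all genes passed in either direction, so the count is near that of all genes. The Abat call was lost in 6 of 9 such fits and that of Slc38a1 in 1. Of 20 synaptic vesicle and release genes 2 fell and 0 rose against CIE+IgG, where 1.41% of all genes fell and 1.78% rose. They were the vesicle protein Sv2b and the synapsin Syn2, with log2 fold changes of -1.24 and -0.54 (adjusted p = 0.0422 and 0.0465). Their calls were lost in 7 and 8 of 9 fits that leave out 1 library. Against Air+IgG 6 of 20 fell, which were Syn2, Sv2b, Stx1a, Cplx2, Syt1 and Scamp5, where 6.71% of all genes fell, and 0 rose. Here the Cplx2 and Scamp5 calls were lost in 7 of 9 such fits each. Those of Stx1a and Syt1 were lost in 6 each, that of Sv2b in 3 and that of Syn2 in 2. The medians of the list were -0.10 and -0.19 in these comparisons, where all genes had 0.01 in both. Of the choline and monoamine transporters, 3 were tested and 0 passed. The largest difference was that of the choline transporter Slc5a7, with a log2 fold change of 3.29 against Air+IgG (adjusted p = 0.0514). It averaged 16.4 CPM in CIE+IL17 Ab and 4.81 CPM in CIE+IgG, against a low 1.64 CPM in Air+IgG. Slc5a7 passed against Air+IgG in DESeq2 (adjusted p = 0.00121), with the label number as a block (0.0177), with only both groups in the fit (0.0204), with robust=FALSE (0.0443), and without CIE+IgG replicate 2 (0.0348), CIE+IgG replicate 3 (0.0116) or CIE+IL17 Ab replicate 1 (0.0488). It did not pass in 6 other settings and in 6 other fits that leave out 1 library. Among the latter the adjusted p was 0.137 and 0.15 without Air+IgG replicates 1 and 2. Against CIE+IgG the log2 fold change of Slc5a7 was 1.74 (adjusted p = 0.257), and 3.74 without CIE+IgG replicate 3 (adjusted p = 0.0293), the 1 fit in which it passed.

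**Figure D4:**
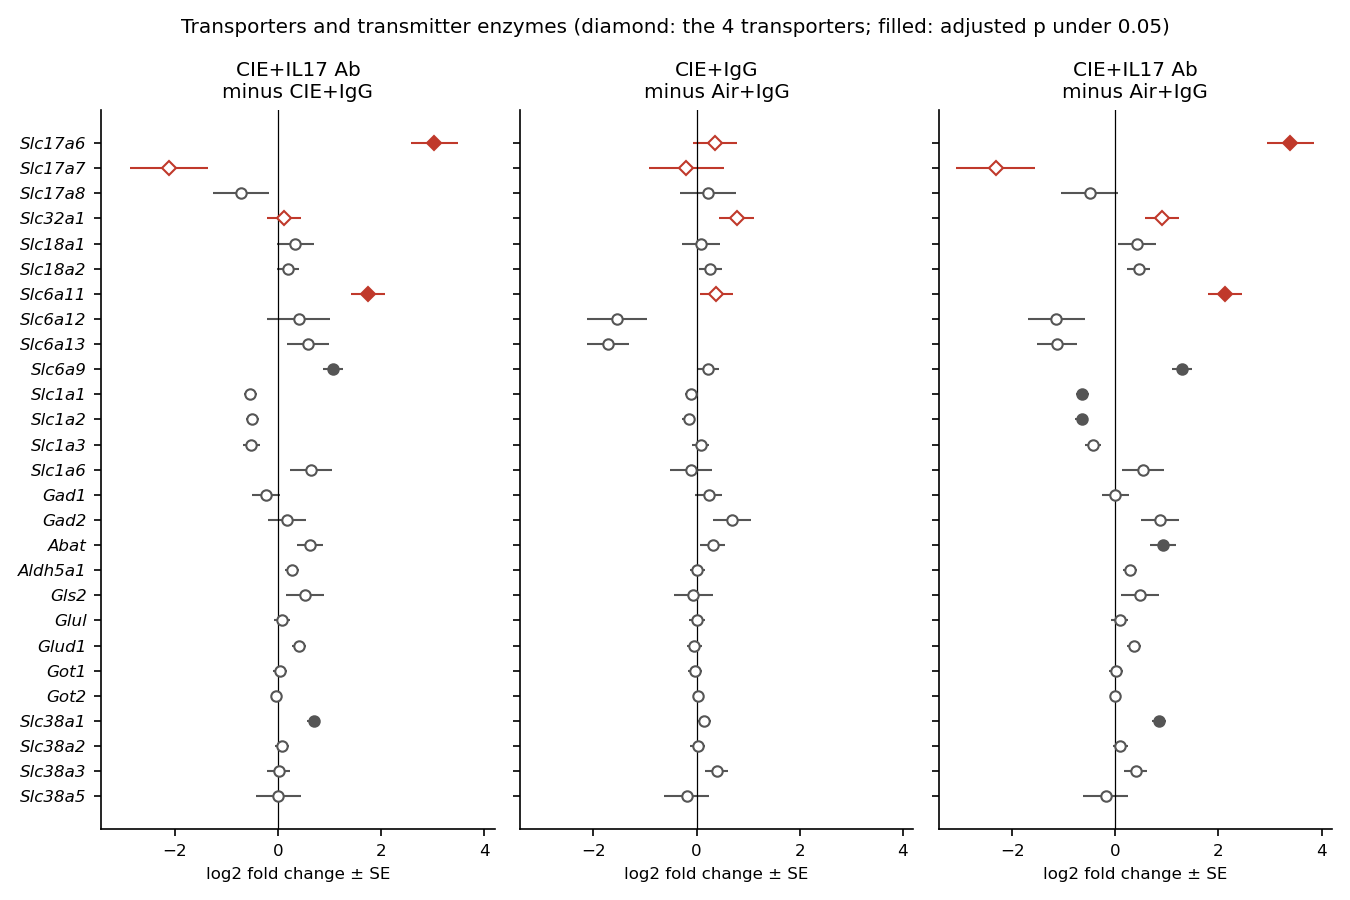
Log2 fold change with its standard error (horizontal) for transporters and transmitter enzymes (rows) in the 3 comparisons, with the 4 transporters as red diamonds and filled symbols for an adjusted p under 0.05. Slc17a6 and Slc6a11 are filled and to the right in both comparisons of CIE+IL17 Ab, Slc17a7 is open and to the left, and no symbol is filled in CIE+IgG minus Air+IgG.

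The genes with the pattern most like each transporter were ranked by Pearson correlation of log2 CPM over the 9 libraries, as a description. With 3 libraries apart from the other 6, a high value mostly says that a gene separates the same libraries. The 6 IgG libraries are among the 9 by which the genes were picked, so their r is no separate check. For Slc17a6 the closest 5 were Kcna6, a potassium channel subunit, Btbd11, Map4k2, Rims3, an active zone protein, and Sh3bgrl2, with r from 0.9863 to 0.9945, and from 0.9232 to 0.9794 over the 6 IgG libraries alone. For Slc17a7 they were Slit3, an axon guidance ligand, Chrm1, the M1 muscarinic receptor, Itpka, Icam5 and Ddn, the dendritic protein dendrin, with r from 0.9938 to 0.9976, and from 0.8615 to 0.9675 over the IgG libraries. Chrm1 averaged 46.3 CPM in CIE+IL17 Ab and 214 CPM in CIE+IgG, against 245 CPM in Air+IgG. For Slc6a11 they were Susd2, Cdh22, Slc38a1, Slc6a9 and Fzd1, a Wnt receptor, with r from 0.9896 to 0.9955, and from 0.7988 to 0.9525 over the IgG libraries, so that the glutamine transporter and the glycine transporter named above are among its closest 5. For Slc32a1 they were Tmbim6, Tbc1d7, Ankrd29, Dolpp1 and Plvap, with r from 0.9377 to 0.9746, and from 0.9249 to 0.9929 over the IgG libraries. Tmbim6 differed by at most 0.13 on the log2 scale between groups. Among the transporters themselves, r over 9 libraries was 0.963 for Slc17a6 with Slc6a11, -0.917 for Slc17a6 with Slc17a7 and -0.966 for Slc17a7 with Slc6a11. Within the 6 IgG libraries these were 0.612, -0.586 and -0.761, and Slc32a1 with Slc6a11 had 0.949, against 0.574 over all 9.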

How the data were processed

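Polyadenylated RNA of 9 hippocampal samples was sequenced as strand-specific libraries, per the labels' protocols. The authors deposited one table of expected counts (estimated counts) that differ in total between libraries and so were not scaled between them, with STAR 2.5.1a, RSEM 1.3.0 and the build GRCm38 listed per the submitters' processing notes. Nothing in the labels or the header says which gene models or filters the authors used. In the deposited table every gene's third-largest count is at least 6, and 27.1% of values carry decimals, since an expected count shares ambiguous reads out over similar genes. Symbols, positions and exon lengths came from GENCODE M21 (14628 of 14779 identifiers matched), and promoters from RefSeq.

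Counts were rounded and filtered with filterByExpr (minimum count 10), scaled by TMM and tested with edgeR 4.0.16 in R 4.3.3 (glmQLFit, robust=TRUE) on all 9 libraries, which leaves 6 residual degrees of freedom beyond the 3 group means, with Benjamini-Hochberg adjustment over 14696 genes. The standard error is the log2 fold change over the square root of F. Ratios used counts plus 0.5 and two-sided exact permutation tests over samples. DESeq2 1.42.0, limma-voom (limma 3.58.1) and other settings were run beside it, and the fits were tested on simulated data. Log2 CPM used a prior count of 2.

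Groups follow the sample titles. No 2 libraries were identical. Same-numbered libraries did not vary together in every pair, so replicate numbers were not used as pairs. The members, lists and rules were chosen with earlier results of these data known. The text names the 4 transporters, list genes that passed or had the 2 smallest p of a list, up to 3 markers of a list, and the 5 most alike genes of each transporter. Of the marker lists, those of CA2 and CA3, dentate gyrus, microglia and general neurons are given in the closing section. A few list genes, and 1 ratio that needs one of them, are not reported here, and the ratio stays in the family for the adjustment. P-values set a difference between groups against the spread between these samples, which also differ in markers of other regions.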

Additional observations from a re-analysis of the deposited data

How the results depend on the processing

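The Slc17a6 call against Air+IgG held in 10 of 11 other settings and in 8 of 9 fits that leave out 1 library, and that of Slc6a11 in 10 of 11 and 7 of 9. Against CIE+IgG the calls of both held in 8 of 11 settings, and in 4 of 9 (Slc17a6) and 3 of 9 (Slc6a11) such fits. Genes called between CIE+IL17 Ab and CIE+IgG numbered 468 in edgeR, 1481 in DESeq2, 776 with the label number as a block, 1 with only the 2 groups and 1 in libraries 54 to 60. Between CIE+IL17 Ab and Air+IgG they numbered 1990, against 1192 with only the 2 groups, 2 in libraries 54 to 60 and 1067 without the 2 Lars2-rich libraries, and between CIE+IgG and Air+IgG DESeq2 called 6. Without 1 library, counts ranged from 0 to 1313 against CIE+IgG (22, 223 and 18 without Air+IgG replicates 1, 2 and 3, 0, 7 and 715 without those of CIE+IgG, 348, 19 and 1313 without those of CIE+IL17 Ab) and from 0 to 2305 against Air+IgG (478, 336 and 0, 1122, 1621 and 2052, and 2249, 218 and 2305 in the same order).

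Same-numbered replicates did not vary together in every pair (correlations of deviations from -0.27 to 0.249), so the numbers were not used as pairs. With 3 libraries a group that differ in regional markers, these correlations cannot decide whether the samples were paired. With the replicate block the CIE+IL17 Ab libraries had 14 called genes against CIE+IgG and 571 against Air+IgG, and Slc17a6 (3.00) and Slc6a11 (1.69) missed the threshold against CIE+IgG.

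Against CIE+IgG the Slc17a6 and Slc6a11 log2 fold changes were 3.03 and 1.74 with only the 2 groups and 3.10 and 1.98 in libraries 54 to 60, and against Air+IgG 3.51 and 2.25 in libraries 54 to 60, all short of the threshold; the cause was not tested. Slc17a7 against Air+IgG passed in DESeq2 (-2.32) and limma-voom (-3.02), and Slc32a1 in DESeq2 (0.91). The 3-group difference of the Slc17a6 to Slc17a7 ratio missed it in libraries 54 to 60 (6.61), where 2 libraries a group give few arrangements, and without the 2 Lars2-rich libraries (4.64). The sign turned for Tcf7l2 in CIE+IgG minus Air+IgG in libraries 54 to 60 (-0.12).

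Leaving out 1 library, the log2 fold changes against CIE+IgG ranged from 2.72 to 3.37 for Slc17a6, -3.39 to -1.61 for Slc17a7, -0.14 to 0.50 for Slc32a1 and 1.29 to 2.02 for Slc6a11. Against Air+IgG they ranged from 3.08 to 3.72 for Slc17a6, -3.59 to -1.81 for Slc17a7 and 1.67 to 2.40 for Slc6a11. In CIE+IgG minus Air+IgG they ranged from -0.37 to 0.072 for Slc17a7, -0.088 to 0.40 for Slc17a8, -0.46 to 2.10 for Slc5a7, -0.02 to 1.47 for Tcf7l2 and -0.0898 to 1.47 for Dlx6. The 3-group log2 differences ranged from 5.07 to 7.75 for Slc17a6 to Slc17a7 and from 1.37 to 1.81 for Slc32a1 to Slc17a6 plus Slc17a7. The libraries of a group differ in regional markers.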

Other observations

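The remaining marker lists were counted in CIE+IL17 Ab against CIE+IgG, where the median of all genes was 0.01 on the log2 scale. Of all genes, 3.18% passed there, with 1.78% higher and 1.41% lower. The counts of these lists were not tested against such shares. Of 8 CA2 and CA3 pyramidal markers 0 rose and 1 fell, Grik4, a kainate receptor subunit, with a median log2 fold change of -0.54. Of 8 dentate gyrus granule cell markers 0 passed, with a median of -0.62. Of 14 inhibitory interneuron markers 2 fell, the cannabinoid receptor Cnr1 and somatostatin (Sst), with a median of -0.90. The Cnr1 and Sst calls were lost in 5 and 7 of 9 fits that leave out 1 library. Of 8 microglia markers 2 fell, Csf1r and P2ry12, with a median of -0.29, and of 9 general neuron markers 1 rose, the heavy neurofilament Nefh, with a median of 0.14. Of 8 oligodendrocyte and 8 choroid plexus markers 0 passed, with medians of 0.28 and -0.08, and of 10 meningeal fibroblast and 10 striatal markers 0 passed, with medians of 0.38 and -0.35. Against Air+IgG 13.5% of all genes passed, with 6.83% higher and 6.71% lower. In that comparison 2 of the CA2 and CA3 markers rose and 1 fell, and 0 of the dentate gyrus, striatal and choroid plexus markers passed. There 1 interneuron marker rose and 4 fell, 3 microglia and 3 meningeal fibroblast markers fell, and 2 general neuron markers rose.

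CIE+IL17 Ab replicate 3 lay between the other antibody libraries and the IgG libraries for Slc17a6 (166 CPM), Slc17a7 (338 CPM), Slc6a11 (267 CPM) and the CA1 marker sum (291 CPM). For the thalamus and habenula marker sum it held 1498 CPM, above the 1177 CPM of replicate 1. For Tcf7l2, the one of these markers given per library, it held 126 CPM, below the 176 CPM of replicate 1. The part of these markers in the transporter values was not tested.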
